A study of Homo sapiens with 16 samples.

Results

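CTCF, RAD21, SMC3, NIPBL and STAG1 encode the DNA-binding factor CTCF and 4 proteins of the cohesin machinery, and the deposited regions at these 5 genes were compared between HCT116 and DKO cells. A region belonged to the set when it overlapped, with 5 kb added on each side, the hg19 locus of a gene: CTCF at chr16:67596000-67673500, RAD21 at chr8:117858000-117887500, SMC3 at chr10:112327000-112365000, NIPBL at chr5:36876000-37066000 and STAG1 at chr3:136055000-136472000. By this rule 503 of 1255311 regions were members, with 102 at CTCF, 74 at RAD21, 85 at SMC3, 89 at NIPBL and 153 at STAG1. HCT116 is a human colorectal carcinoma cell line, and DKO was derived from it by disruption of DNMT1 and DNMT3B, which encode enzymes that methylate DNA. Both were grown in the same medium with no treatment named, and whether DKO is a single clone is not given in the sources used here. Chromatin immunoprecipitation followed by sequencing (ChIP-seq) was done once per line for CTCF, for RAD21 and SMC1, which are subunits of cohesin, for acetylated lysine 27 of histone H3 (H3K27Ac), and for RNA polymerase II in total (TotalRNAPol2) or with phosphate in its C-terminal repeat, on serine 5 (Pol2Ser5) or on serine 2 (Pol2Ser2). The antibody label of the TotalRNAPol2 libraries names the Pol2Ser5 antibody, and their titles, which name total polymerase, were followed. The series title ties DNA methylation to the choice of polyadenylation site through CTCF and cohesin, and polyadenylation was not analysed here.

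Cohesin is a ring of the SMC1, SMC3 and RAD21 proteins that holds DNA strands together and extrudes chromatin loops. NIPBL loads the ring onto DNA, STAG1 is a subunit that joins it to other proteins, and CTCF bound in a given orientation stops it, so that both often sit at the same sites. Methylated DNA at a CTCF site can keep the protein off. H3K27Ac marks active promoters and enhancers, serine 5 phosphorylation marks polymerase near gene starts, and serine 2 phosphorylation builds up along genes toward their ends. All 5 genes are expressed in most dividing cells. Protein and messenger RNA levels of these factors were not analysed here, and the values describe the chromatin of their genes. To keep them apart, the gene is named with the word gene or locus, and a ChIP-seq target with the word protein or ChIP.

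The values given are the reads of each library in the counting window of a region (2 kb for H3K27Ac and polymerase, 1 kb for the 3 chromatin-binding proteins), recovered from the deposited densities, and M, the log2 ratio of DKO over HCT116 after the scaling of the authors. Reads are unscaled, so M and not the ratio of the reads compares the lines. The 95% interval beside an M is exact and covers counting error only. With 1 library per line and target there were no replicates, no test was possible, and a difference between the lines cannot be told apart from one between libraries. Over whole tables the median depth of a region ran from 23 reads (Pol2Ser5, HCT116) to 94 reads (H3K27Ac, HCT116), and 111 of the 503 regions were called in both lines. Of the 503, 57.5% shared a counting window with another member of the same table, so neighbouring regions are not independent values.

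Promoter sequence was examined first, because CTCF and cohesin were bound at the gene starts themselves. RefSeq (GRCh38.p14) gave the promoter of 4 of the 5 genes, and RAD21 is named only. The core of the CTCF motif, written as CC, any 3 bases, AG, any 2 bases and GGC, was searched on both strands from 250 bases before to 50 bases after each start. It occurred in 10.6% of 35116 RefSeq promoters of this length, and at least 2 times in 0.92%. STAG1 held 2 matches, NIPBL 1 on the reverse strand, and CTCF and SMC3 none. The sites are printed as 30 bases with the match in capitals, read along the gene, and begin with the STAG1 sites because the start of that gene carried the most CTCF, RAD21 and SMC1 reads of the 5.
STAG1, first site, chr3:136752398-136752427, minus strand: gcaccgcggCCAGCAGAGGGCggtccggac
STAG1, second site, chr3:136752340-136752369, minus strand: tggaaaatgCCACCAGATGGCgggttagga
NIPBL, chr5:36876587-36876616, plus strand, match on the other strand: aggagagctGCCGCCTCCCGGctgctgggc

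The first STAG1 match lay 40 to 29 bases before the start and the second 18 to 29 bases past it. The 250 bases before the start are shown for STAG1 (chr3:136752379-136752628, minus strand), with the match in capitals, and for CTCF (chr16:67562276-67562525, plus strand), which had no match and at which the CTCF protein differed most between the lines among the 5 starts.
STAG1: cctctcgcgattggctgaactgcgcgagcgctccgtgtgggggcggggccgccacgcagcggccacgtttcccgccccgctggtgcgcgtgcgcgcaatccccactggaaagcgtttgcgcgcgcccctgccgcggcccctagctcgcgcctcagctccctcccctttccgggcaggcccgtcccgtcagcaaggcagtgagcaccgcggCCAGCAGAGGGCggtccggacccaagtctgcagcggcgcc
CTCF: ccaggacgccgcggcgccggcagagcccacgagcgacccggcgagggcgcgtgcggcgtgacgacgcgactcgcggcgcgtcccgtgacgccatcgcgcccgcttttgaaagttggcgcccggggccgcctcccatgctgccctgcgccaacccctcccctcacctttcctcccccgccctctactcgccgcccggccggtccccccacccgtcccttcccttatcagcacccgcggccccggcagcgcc
The 300-base window held 46 CG dinucleotides at CTCF, 37 at STAG1, 30 at NIPBL and 23 at SMC3, against a median of 14 over all promoters. All 4 were thus richer in CG, the target of DNA methylation, than the median promoter. Methylation was not measured in these files.

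The acetylated starts of all 5 genes were present at similar levels in both lines. H3K27Ac was read at the start of the CTCF gene with 1012 DKO reads and 836 HCT116 reads (M 0.31, 95% interval 0.18 to 0.44). RAD21 had 772 and 654 reads (M 0.30, 0.14 to 0.45), and SMC3 had 1161 and 1142 (M 0.04, -0.08 to 0.16). NIPBL had 793 and 761 reads (M 0.11, -0.04 to 0.25), and STAG1 had 694 and 727 (M -0.01, -0.16 to 0.14). The CTCF and RAD21 starts were thus higher in DKO beyond counting error, by 1.24-fold and 1.23-fold, and the intervals of the other 3 starts covered 0. The start is the 5′ edge of the locus, and the region with the highest mean density within 1 kb of it was used.

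Pol2Ser5, the form of polymerase at gene starts, likewise differed little there. It had 665 DKO reads and 306 HCT116 reads at CTCF (M 0.25, 0.06 to 0.46). RAD21 had 370 and 198 reads (M 0.06), SMC3 762 and 428 (M -0.05), NIPBL 657 and 370 (M -0.04) and STAG1 707 and 428 (M -0.15), and each of these 4 intervals covered 0. The DKO library had more reads at every start, and after scaling CTCF alone stood above counting error.

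TotalRNAPol2 at the starts depended on the scaling. CTCF had 415 DKO reads and 127 HCT116 reads (M 0.89, 0.61 to 1.20), RAD21 260 and 132 (M 0.26), NIPBL 514 and 237 (M 0.11), SMC3 738 and 384 (M -0.25) and STAG1 522 and 310 (M -0.31). The scaling of this table and of the Pol2Ser2 table changes with the level of a region, and with 1 constant for the whole table all 5 starts were above 0, from 0.16 at STAG1 to 1.10 at CTCF. Centred on the median of all regions, 1 of 5 was above 0, which was CTCF. Recentring shifts all values alike and cannot change their order. With 1 constant CTCF stayed first and STAG1 last, while NIPBL (0.52) passed RAD21 (0.38).

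Pol2Ser2, the elongating form, gave the widest spread among the 5 starts. The CTCF start had 91 DKO reads and 31 HCT116 reads (M 1.89, 1.32 to 2.56), and STAG1 had 96 and 40 (M 1.54, 1.02 to 2.13). NIPBL had 44 and 37 reads (M 0.75, 0.09 to 1.42), while RAD21 had 21 and 43 (M -0.36, -1.22 to 0.39) and SMC3 had 47 and 79 (M -0.43, interval up to 0.10). CTCF and STAG1 were thus 3.72-fold and 2.91-fold higher in DKO, and the intervals of RAD21 and SMC3 did not reach theirs. All 3 Pol2Ser2 regions at the CTCF start, each called in DKO only, and both at the STAG1 start were at least 2-fold higher in DKO. The 3 CTCF regions shared counting windows, and 1 of the STAG1 regions was called in DKO only and 1 in both lines. High M is favoured among regions called in DKO only, of which 41362 of 117975 were at least 2-fold higher in the whole Pol2Ser2 table. Of all Pol2Ser2 regions, 18.6% were at least 2-fold higher, and 20.8% were among Pol2Ser2 regions over H3K27Ac and Pol2Ser5 regions that were each called in both lines, a set of start-like regions chosen after the values of the members had been seen.

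**Figure D1:**
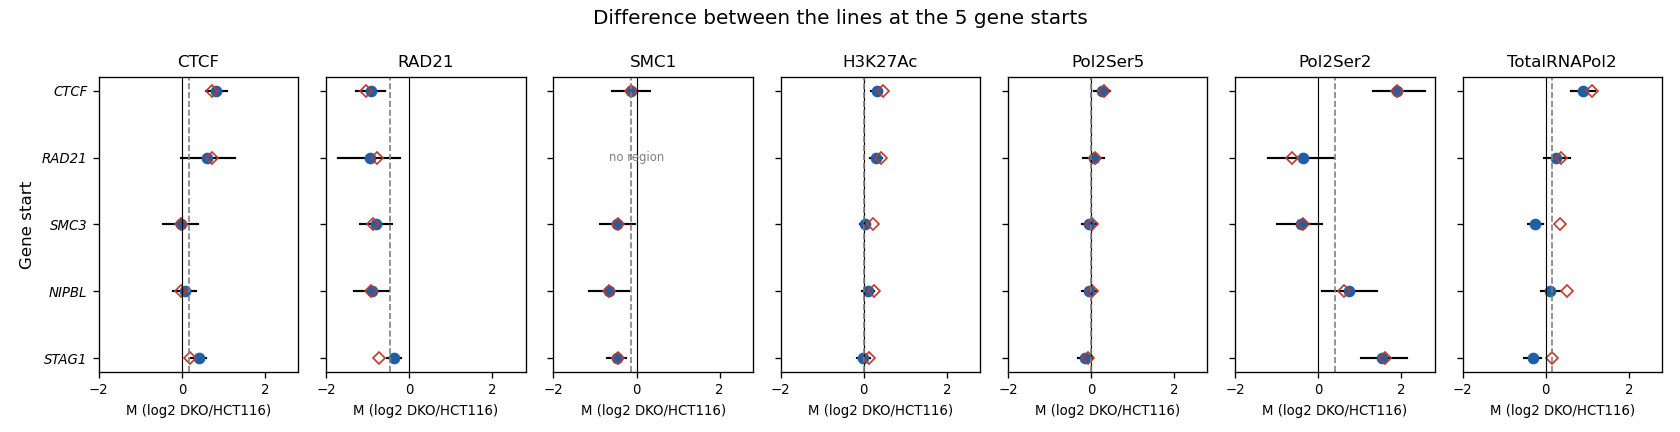
M at the start of each gene for the 7 ChIP targets, with the log2 ratio of DKO over HCT116 on the horizontal axis and the gene on the vertical. Filled circles are M as deposited with 95% counting intervals, open diamonds are M with 1 constant per table, and dashed lines are the median of start-like regions of that table; RAD21 protein lies below 0 at all 5 starts, while Pol2Ser2 runs from -0.43 at SMC3 to 1.89 at CTCF.

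RAD21 protein was lower in DKO at these 5 starts, while CTCF protein at the densest region of each was not lower beyond counting error. RAD21 protein had 115 DKO reads and 194 HCT116 reads at the CTCF gene (M -0.92), 28 and 40 at RAD21 (M -0.94), 96 and 144 at SMC3 (M -0.80), 79 and 124 at NIPBL (M -0.89) and 511 and 692 at STAG1 (M -0.36). All 5 intervals lay below 0, and with 1 constant per table the 5 values ran from -1.037 to -0.725. Recentring subtracts the table median of 0.141 and could only lower them. SMC1 had 89 and 78 reads at CTCF (M -0.14, -0.59 to 0.32), 95 and 104 at SMC3 (M -0.46, -0.88 to -0.05), 65 and 82 at NIPBL (M -0.65, -1.15 to -0.17) and 319 and 346 at STAG1 (M -0.48, -0.70 to -0.26). The SMC1 table held no region at the RAD21 start. Of the 4 SMC1 values, 3 were below 0 beyond counting error.

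CTCF protein, by contrast, had 342 DKO reads and 204 HCT116 reads at the start of its own gene (M 0.82, 0.57 to 1.08) and 591 and 505 at STAG1 (M 0.40, 0.23 to 0.57). It had 58 and 34 reads at RAD21 (M 0.60, -0.01 to 1.28), 218 and 216 at NIPBL (M 0.07) and 100 and 99 at SMC3 (M -0.03), and these 3 intervals covered 0. CTCF protein was therefore 1.77-fold higher in DKO at its own gene, where M was 0.72 with 1 constant per table and 0.56 recentred. The 1.32-fold difference at STAG1 depended on the scaling, with M 0.20 and 0.14, and the other 3 starts were not distinguishable. The CTCF start was mixed within 2 kb, since a separate CTCF region 0.3 kb upstream of it had 22 DKO reads and 44 HCT116 reads (M -1.16, interval up to -0.42).

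The lower RAD21 signal was shared with start-like regions of its table. These are RAD21 regions over H3K27Ac and Pol2Ser5 regions called in both lines, and they were not matched to annotated gene starts. Over start-like regions the median M of RAD21 was -0.47 and 76.1% lay below 0, while the medians were -0.13 for SMC1 and 0.18 for CTCF. Of the 5 members, 4 lay below the RAD21 median and STAG1 above it. Of the CTCF regions of the 5 loci that overlapped a RAD21 region, 6 of 6 near starts had a lower M for RAD21 than for CTCF, against 9 of 20 elsewhere in the loci. At the CTCF gene, chr16:67595889-67596072 and chr16:67596190-67597910 were paired with the same RAD21 region (M -0.92), so that value was counted more than 1 time. The RAD21 values of the pairs near starts are the start values given above. For SMC1 the counts were 5 of 5 near starts and 4 of 12 elsewhere. Over all regions the share was 54.3% for RAD21 and 53.6% for SMC1, and over start-like regions it was 84.5% and 71.1%. The gap between CTCF and cohesin at the 5 genes was thus of the kind found at other start-like regions of these libraries, and read depth and antibody differ between the tables.

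Across the 503 regions, more were lower in DKO than higher. At least 2-fold lower were 74 regions (14.7%, against 10.2% of all regions), and 28 were at least 2-fold higher (5.57%, against 15.6%). The STAG1 locus supplied 38 of the 74. Over the other 4 genes 36 of 350 regions (10.3%) were lower, near the share of all regions. The CTCF locus was the only one of the 5 with more higher than lower regions, with 11 (10.8%) against 4 (3.92%). Both shares were below those of all regions, which also held more higher than lower. RAD21 had 0 higher and 12 lower (16.2%), and SMC3 had 3 (3.53%) and 4 (4.71%). NIPBL had 7 (7.87%) and 16 (18.0%), and STAG1 had 7 (4.58%) and 38 (24.8%).

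By target, H3K27Ac stood furthest from its table on the lower side, with 11 of 37 member regions at least 2-fold lower (29.7%, against 10.4%) and 2 higher (against 11.0%). Of the 11, 8 lay in the body of STAG1. Called in HCT116 only, where low M is favoured, were 10 of the 11. They were 43.5% of the member H3K27Ac regions so called, against 22.2% in the whole table. RAD21 protein had 8 of 37 lower (21.6%, against 8.70%) and 1 higher (against 13.7%). CTCF protein had 7 of 41 lower (17.1%, against 6.33%) and 3 higher (7.32%, against 20.1%), and SMC1 had 2 of 27 lower (against 4.67%) and 0 higher (against 9.36%). Pol2Ser5 had 15 of 81 lower (18.5%, against 21.0%) and 1 higher (against 14.9%). Pol2Ser2 had 26 of 182 lower (14.3%, against 10.9%) and 18 higher (9.89%, against 18.6%), and TotalRNAPol2 had 5 of 98 lower (5.1%, against 10.2%) and 3 higher (against 20.7%). In all 7 tables a smaller share of the member regions than of the whole table was at least 2-fold higher in DKO.

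**Figure D2:**
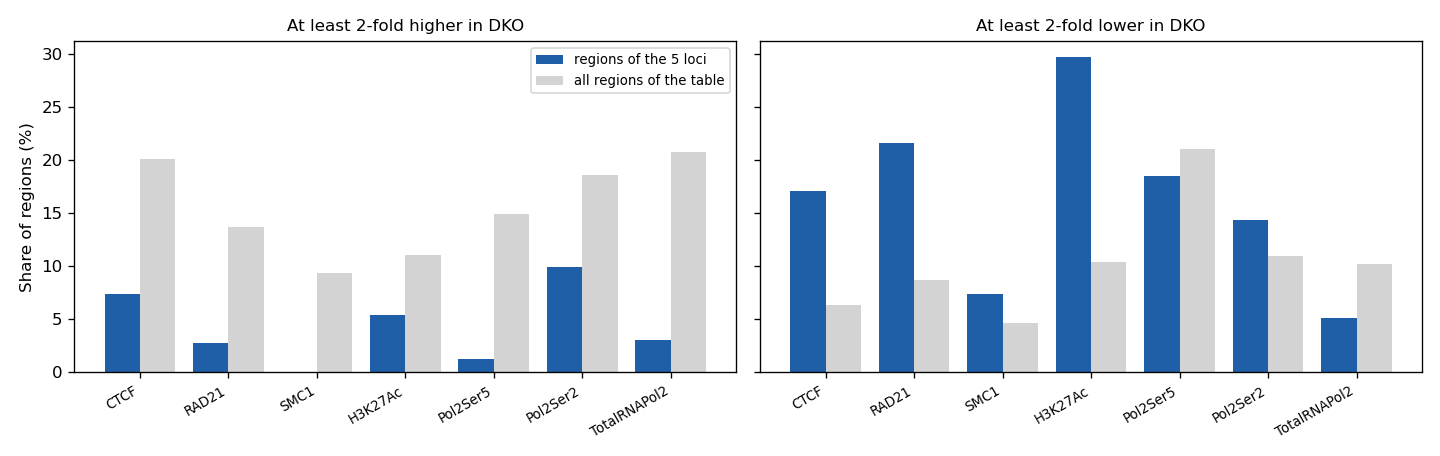
Share of regions, in percent, at least 2-fold higher (left) and at least 2-fold lower (right) in DKO for each ChIP target, with blue bars for the regions of the 5 loci and grey bars for all regions of the same table. The blue bars on the left are all shorter than the grey ones, and on the right the H3K27Ac bar is the tallest at 29.7%. Of the 11 H3K27Ac regions in that bar, 8 lay in the body of STAG1.

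STAG1, which encodes the subunit that joins the ring to CTCF, had an acetylated start in both lines and H3K27Ac regions inside the gene that were mostly called in HCT116 alone. A region called in 1 line only enters a table through the line where it is high, so low M is favoured among regions called in HCT116 only, and counts over them describe the regions and support no shift of the gene. Of 14 H3K27Ac regions away from its start, 13 were below 0, 8 were at least 2-fold lower, and 11 had intervals below 0. Of these 14 regions, 13 were called in HCT116 only and 1 in both lines. Among the 13, 12 were below 0 and 7 at least 2-fold lower (53.8%), where 85.2% and 22.2% of all H3K27Ac regions called in HCT116 only were. The steepest difference lay 10.9 kb past the start at chr3:136460678-136461525, with 7 DKO reads and 100 HCT116 reads (M -3.32, -4.85 to -2.41), a 10.0-fold lower density in DKO. At chr3:136459399-136459574, 12.5 kb past the start, there were 5 and 72 reads (M -3.24, -5.15 to -2.20). The 2 kb counting windows of these regions overlap. Between 4.8 and 6.3 kb past the start, 3 regions had 27 to 34 reads in DKO and 75 to 91 in HCT116, with M from -1.15 to -1.04.

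**Figure D3:**
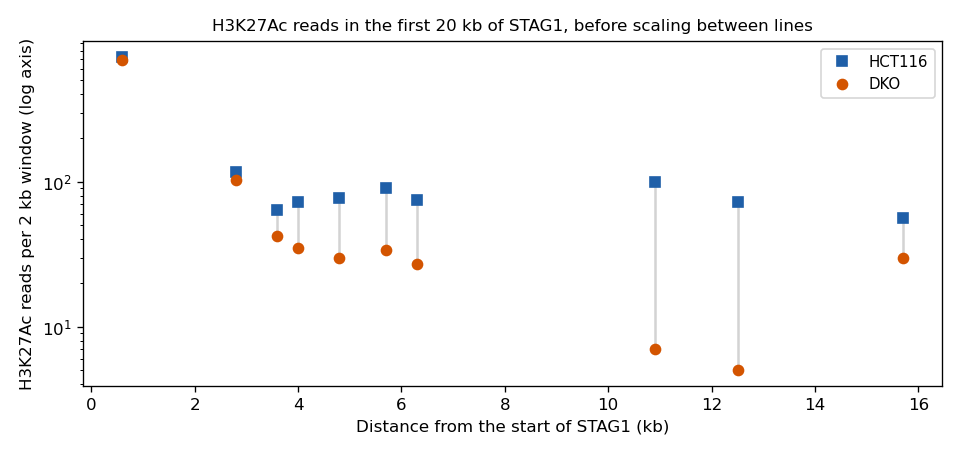
H3K27Ac reads per 2 kb window on a log axis against the distance from the start of STAG1 in kb, in the first 20 kb, with squares for HCT116 and circles for DKO, before scaling between the lines. The symbols nearly coincide at the start (694 and 727 reads) and lie farthest apart at 10.9 kb (7 and 100 reads).

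Lower values inside STAG1 were also listed for other targets, again mostly at regions called in HCT116 only. Pol2Ser5 was below 0 at 17 of 18 regions of the gene body, with a median M of -0.98, and 8 of them were at least 2-fold lower. Of the 18, 16 were called in HCT116 only and none in both lines, and the share of the 16 at least 2-fold lower (50.0%) was below that of all Pol2Ser5 regions called in HCT116 only (57.8%). RAD21 protein was at least 2-fold lower at 6 of 16 regions of the locus (against 8.70% of its whole table). Among them were 5.7 kb (7 DKO reads and 21 HCT116 reads) and 18.6 kb (11 and 32) past the start. CTCF protein was at least 2-fold lower at 5 of 13 regions (against 6.33%) and SMC1 at 2 of 9 (against 4.67%). All 6 RAD21, both SMC1 and 4 of the 5 CTCF regions were called in HCT116 only. No region of the locus was at least 2-fold higher in DKO for H3K27Ac, Pol2Ser5, CTCF, RAD21 or SMC1. In the whole tables of these targets 9.36% to 20.1% of regions were. TotalRNAPol2 had a body median of -0.48, while Pol2Ser2 went both ways. Of its 48 body regions, 5 were at least 2-fold higher (against 18.6% of its whole table) and 8 lower (against 10.9%).

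Several of these positions coincided. At 372.3 kb past the start H3K27Ac had 10 DKO reads and 60 HCT116 reads (M -2.13, -3.37 to -1.27), and the overlapping CTCF region had 4 and 16 (M -2.12, -4.39 to -0.72). The overlapping Pol2Ser5 region had 9 and 22 reads (M -1.89, -3.28 to -0.80). All 3 regions were called in HCT116 only, where low M is favoured. At 127.9 kb H3K27Ac had 30 and 81 reads (M -1.12), and SMC1, 0.5 kb away, had 13 and 29 (M -1.39). At 18.6 kb CTCF had 43 and 70 reads (M -0.81), where RAD21 had 11 and 32 (M -2.01). The H3K27Ac region at 127.9 kb and the CTCF region at 18.6 kb were called in both lines. The SMC1 and RAD21 regions beside them were called in HCT116 only. At 135.7 kb the targets went opposite ways, with CTCF at 12 and 35 reads (M -1.71, -2.87 to -0.81) and RAD21 at 29 and 10 (M 0.89, -0.10 to 2.18). That CTCF region was called in HCT116 only and that RAD21 region in DKO only, so the calls favoured both directions. These positions were chosen after their values were seen.

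Not all binding at STAG1 was lower. The CTCF sites at 401.0 kb (111 and 114 reads, M -0.07) and 5.5 kb upstream (167 and 189, M -0.15) did not differ beyond counting error. Away from the start, the strongest CTCF site inside the gene, at 361.7 kb, had 146 and 197 reads (M -0.41, -0.73 to -0.09), with RAD21 at 100 and 82 (M 0.02) and SMC1 at 66 and 51 (M 0.05). At the 3′ end of the gene Pol2Ser5 had 38 DKO reads and 11 HCT116 reads (M 0.99, 0.08 to 2.20). That region was called in DKO only, where high M is favoured. Regions within 1 Mb on either side of STAG1 that were called in both lines had median M from -0.20 to 0.16 over the 7 tables, and all regions in that stretch had medians from -0.66 to 0.33.

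**Figure D4:**
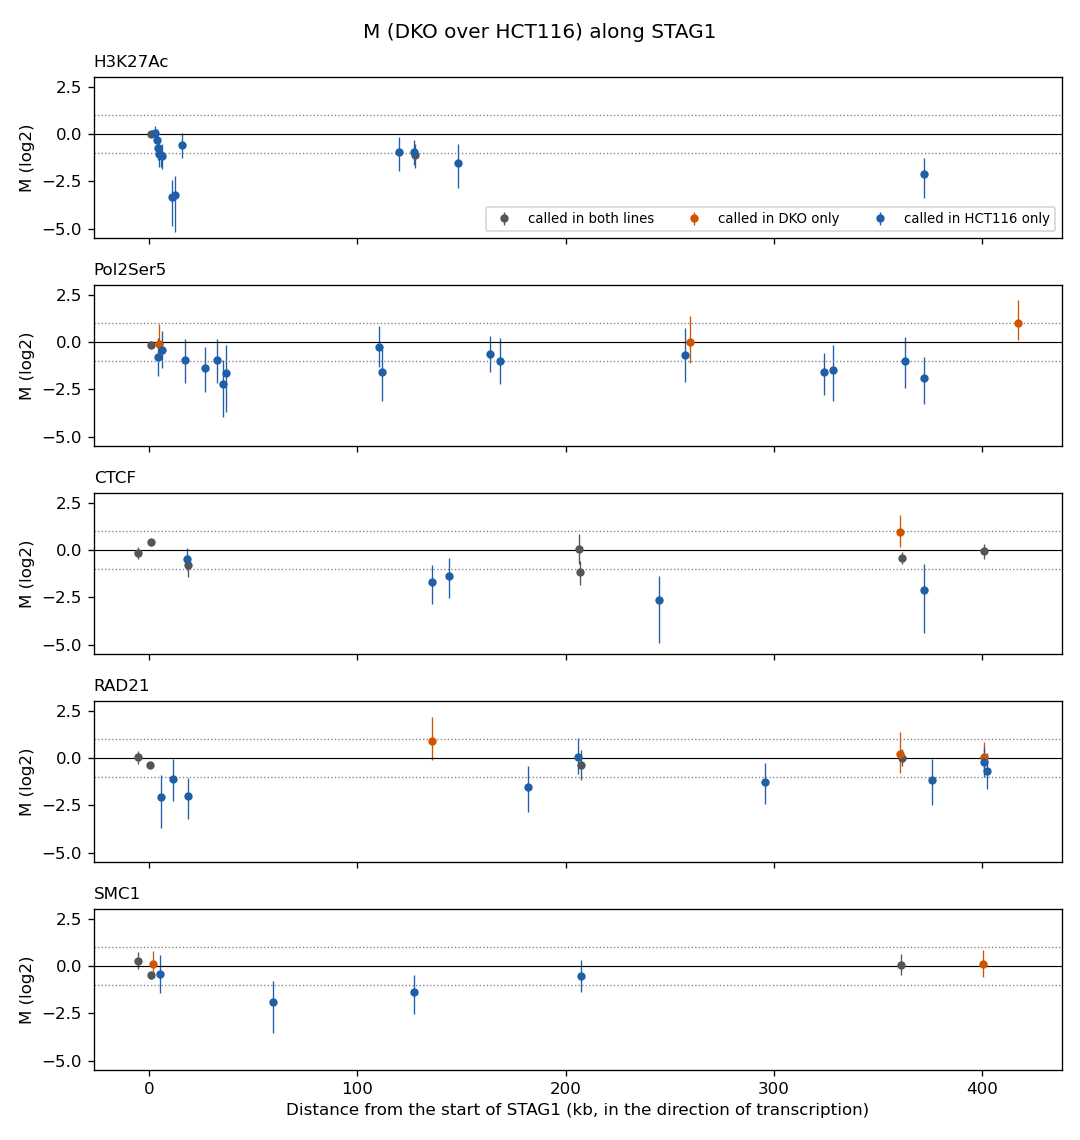
M with 95% counting intervals against the distance from the start of STAG1 in kb for H3K27Ac, Pol2Ser5, CTCF, RAD21 and SMC1, coloured by the line in which the region was called. The start is near 0 in the upper 2 panels, and most regions called in HCT116 only lie below 0, down to -3.32 for H3K27Ac at 10.9 kb.

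At the CTCF gene, whose product is the boundary factor itself, H3K27Ac and all 3 polymerase forms were higher in DKO at the start, while RAD21 protein was lower there. Upstream H3K27Ac regions at 1.7 kb (154 DKO reads and 84 HCT116 reads, M 1.08) and 2.2 kb (96 and 53, M 1.10) were more than 2-fold higher, while 4.2 kb (73 and 116, M -0.43) and 5.0 kb upstream (99 and 133, M -0.21) M was below 0. The 2 higher H3K27Ac regions were called in DKO only and the 2 lower ones in both lines. Pol2Ser5 1.1 kb upstream, called in DKO only, had 306 and 98 reads (M 0.82, 0.49 to 1.17). The divergent transcript CTCF-DT starts on this side in RefSeq, and without strand its polymerase and that of CTCF cannot be told apart. Inside the gene TotalRNAPol2 was higher at 65.2 kb (80 and 23 reads, M 1.70, 1.06 to 2.48) and at 66.2 kb (74 and 25, M 1.47). Pol2Ser2 (34 and 24, M 1.15) was also at least 2-fold higher at 66.0 kb, and SMC1 had 36 and 17 reads at 66.1 kb (M 0.74, -0.08 to 1.71). Each of these regions was called in DKO only, where high M is favoured. Of all TotalRNAPol2 regions called in DKO only, 31454 of 89890 were at least 2-fold higher, and of Pol2Ser2 41362 of 117975. With 1 constant per table the TotalRNAPol2 values were 1.16 and 0.93 and the Pol2Ser2 value 0.85. Pol2Ser5 at 65.3 kb, called in HCT116 only, had 19 and 21 reads (M -0.84), so it was not higher there.

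Binding past the 3′ end of CTCF differed by factor. The strongest CTCF site of the locus, 83.1 kb past the start and toward the neighbouring gene CARMIL2, had 535 DKO reads and 333 HCT116 reads (M 0.82, 0.62 to 1.02). RAD21 there had 375 and 389 (M -0.05, -0.26 to 0.15) and SMC1 254 and 190 (M 0.07, -0.21 to 0.35). As deposited, CTCF was thus 1.77-fold higher without a difference in cohesin beyond counting error. For RAD21 this depended on the scaling, since with 1 constant per table M was 0.66 for CTCF, -0.34 for RAD21 and 0.09 for SMC1. The CTCF site inside the gene at 52.2 kb had 150 and 131 reads (M 0.19, -0.16 to 0.54). The single region of the RAD21 table at least 2-fold higher in DKO among all members lay 6.6 kb past the start of CTCF. It was called in DKO only, with 25 and 6 reads (M 1.28, 0.12 to 3.02).

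The RAD21 gene, which encodes the subunit that closes the ring, had H3K27Ac regions called in HCT116 only on both sides of its acetylated start. H3K27Ac 2.8 kb upstream had 39 DKO reads and 105 HCT116 reads (M -1.14, -1.74 to -0.62), and 2.1 kb upstream it had 44 and 96 (M -0.85, -1.41 to -0.34). At 5.8 kb past the start it had 10 and 41 (M -1.57, -2.84 to -0.66). Low M is favoured among regions called in HCT116 only, of which 85.2% were below 0 and 22.2% at least 2-fold lower in the whole H3K27Ac table. The start was the only H3K27Ac region of the locus called in both lines. The listed polymerase values went different ways, as did the line in which regions were called. Pol2Ser2 was below 0 at 17 of 22 regions of the locus (10 of 13 in the body), against 42.5% of its whole table. Of the 22, 6 were at least 2-fold lower (against 10.9%), such as 17 and 70 reads at 27.3 kb (M -1.41, -2.33 to -0.69). TotalRNAPol2 was below 0 at 12 of 14 body regions (against 38.6%), with a median of -0.64. Pol2Ser5 was above 0 at 9 of 13 and below 0 at 4 (against 50.2%), with a median of 0.24. Called in HCT116 only were 12 of the 22 Pol2Ser2 and 8 of the 14 TotalRNAPol2 regions. Of the 13 Pol2Ser5 regions, 9 were called in DKO only, so the directions are not shown apart from the calls. The highest Pol2Ser5 value was at 13.9 kb, with 66 and 20 reads (M 0.94, 0.24 to 1.79). These directions held with 1 constant per table, where the medians were -0.73 for Pol2Ser2 in the body, -1.07 for TotalRNAPol2 and 0.16 for Pol2Ser5. RAD21-AS1 overlaps the start of the gene in RefSeq, and its reads cannot be told apart.

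CTCF and cohesin inside the RAD21 gene centred on a site 23.6 kb past the start. CTCF had 115 DKO reads and 149 HCT116 reads there (M -0.38, -0.75 to -0.02), and RAD21 80 and 54 (M 0.24, -0.27 to 0.77). The SMC1 table held 2 regions within it, at 48 and 59 reads (M -0.61, -1.19 to -0.04) and at 48 and 47 (M -0.28, -0.89 to 0.33). These intervals overlap, and a difference between the proteins was not tested. A weaker RAD21 region at 16.1 kb, called in HCT116 only, had 6 and 15 reads (M -1.85, -3.64 to -0.54). Polymerase within 1 Mb of the gene was also low, with medians of -0.58 for TotalRNAPol2 and -0.40 for Pol2Ser2 over all regions and -0.49 and -0.26 over the 6 and 7 called in both lines, close to the values inside the gene. RAD21 protein called in both lines in that stretch had a median of 0.42.

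SMC3, which encodes a ring subunit, had H3K27Ac, Pol2Ser5 and CTCF values at its start whose intervals covered 0, beside the lower RAD21 and SMC1 given above, and larger differences near its 3′ end. TotalRNAPol2 at the start was mixed, with M -0.25 at the densest region. A region 1.1 kb upstream, called in DKO only, had 101 and 40 reads (M 1.08, 0.56 to 1.67). At 32.6 kb past the start H3K27Ac had 39 DKO reads and 144 HCT116 reads (M -1.61, -2.18 to -1.12), a 3.05-fold lower density at chr10:112358926-112360365. This H3K27Ac region was called in HCT116 only. The CTCF region overlapping it at 33.5 kb had 139 and 243 reads (M -0.77, -1.09 to -0.47). On the side toward the start, CTCF was higher at 32.1 kb (48 and 22, M 0.90) and 32.5 kb (57 and 24, M 1.04), both called in DKO only. RAD21 at 33.5 kb had 113 and 95 reads (M 0.01) and SMC1 96 and 70 (M 0.12), so the lower CTCF and H3K27Ac came without a difference in cohesin beyond counting error. Past the gene, at 43.3 kb, CTCF had 443 and 467 reads (M 0.07), with RAD21 at 357 and 237 (M 0.54, 0.30 to 0.78) and SMC1 at 191 and 126 (M 0.25, -0.07 to 0.59). Pol2Ser2 was below 0 at 22 of 30 regions of the locus (against 42.5% of its whole table) and TotalRNAPol2 at 17 of 22 (against 38.6%). At least 2-fold lower were 3 of the 30 (against 10.9%) and 0 of the 22 (against 10.2%). Called in HCT116 only, where low M is favoured, were 16 of the 30 and 13 of the 22. Around SMC3 the Pol2Ser2 median of regions called in both lines was itself low, at -1.07.

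NIPBL, the loader gene, held 2 H3K27Ac regions, both at its start, and neither differed beyond counting error. Its CTCF sites went both ways: 130.0 kb past the start CTCF had 88 DKO reads and 168 HCT116 reads (M -0.95, -1.34 to -0.57), with RAD21 at 32 and 29 (M -0.32, -1.09 to 0.46). At 128.6 kb CTCF had 30 and 8 reads (M 1.51, 0.47 to 2.96), at 3.5 kb upstream 19 and 6 (M 1.19, -0.04 to 2.95), and at 173.4 kb 4 and 16 (M -2.12, -4.39 to -0.72). Of these CTCF regions, that at 130.0 kb was called in both lines and that at 173.4 kb in HCT116 only. Those at 128.6 kb and 3.5 kb upstream were called in DKO only. The RAD21 region at least 2-fold lower in this locus lay 1.4 kb past the start, with 28 and 54 reads (M -1.34, -2.08 to -0.68). It was called in HCT116 only. Of 8 Pol2Ser5 regions of the body, 4 were at least 2-fold lower, as at 10.2 kb with 16 and 32 reads (M -1.67, -2.68 to -0.81). Called in HCT116 only were 7 of the 8, all 4 lower ones among them. Of all Pol2Ser5 regions called in HCT116 only, 57.8% were at least 2-fold lower. TotalRNAPol2 had 13 and 49 reads at 5.8 kb (M -1.66, -2.75 to -0.84), and 7 of its 8 body regions were called in HCT116 only. Pol2Ser2 had 26 of 40 regions above 0 and 14 below 0 (42.5% of its whole table was below 0), with a median of 0.38. Of the 40, 5 were at least 2-fold higher (against 18.6%) and 8 lower (against 10.9%). Called in DKO only were 20 of the 40, and 17 in HCT116 only. Near the end of the gene Pol2Ser2 had 21 and 10 reads at 188.7 kb (M 1.97, 0.89 to 3.29) and 18 and 11 at 189.0 kb (M 1.65). With 1 constant per table the Pol2Ser2 median was -0.14. Polymerase regions inside NIPBL were shallow, with a median of 10.5 DKO Pol2Ser2 reads and 21.0 HCT116 reads. NIPBL-DT lies upstream of the start in RefSeq.

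Along all 5 genes, the polymerase regions of the gene bodies were more often below 0 than above it. Pol2Ser5 was below 0 at 42 of 62 body regions (50.2% of its whole table was below 0), Pol2Ser2 at 77 of 135 (42.5%) and TotalRNAPol2 at 51 of 71 (38.6%). The body medians were -0.42, -0.19 and -0.31. Without STAG1 the Pol2Ser5 count was 25 of 44 with a median of -0.16. With 1 constant per table the counts were 48 of 62, 104 of 135 and 66 of 71, where 52.0%, 52.9% and 50.9% of the tables were below 0, and the medians were -0.51, -0.57 and -0.86. Which line a region was called in moved with these counts, since 39 of the 62 Pol2Ser5, 67 of the 135 Pol2Ser2 and 46 of the 71 TotalRNAPol2 body regions were called in HCT116 only. Of the few body regions called in both lines, 1 of 2 Pol2Ser5, 8 of 13 Pol2Ser2 and 1 of 2 TotalRNAPol2 regions were below 0. Over the whole loci the medians of regions called in both lines were 0.01 for Pol2Ser5, -0.09 for Pol2Ser2 and 0.09 for TotalRNAPol2, so the counts do not show lower polymerase in the gene bodies apart from the calls.

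**Figure D5:**
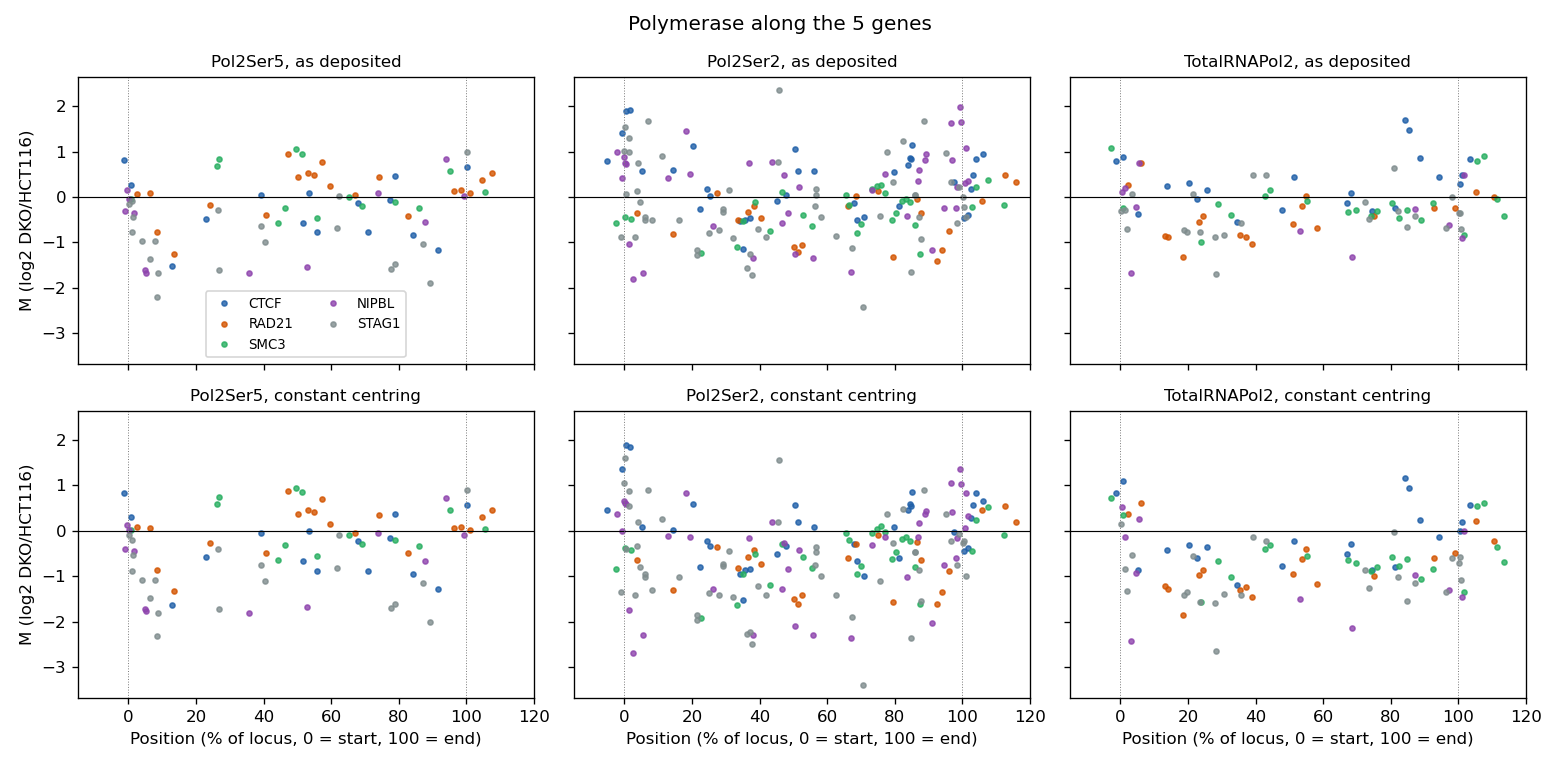
M of each polymerase region against its position along the locus in percent, from the start (0) to the end (100), for Pol2Ser5, Pol2Ser2 and TotalRNAPol2, coloured by gene. The upper row shows M as deposited and the lower row M with 1 constant per table, where 66 of 71 TotalRNAPol2 body regions lie below 0.

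Just past the 3′ ends, where transcripts are cleaved and polyadenylated, Pol2Ser2 was present in both lines at every gene. The Pol2Ser2 region of highest mean density within 5 kb of the 3′ edge lay 1.7 to 3.4 kb past it in all 5 genes. RAD21 had the deepest, with 173 DKO reads and 163 HCT116 reads (M -0.09, -0.41 to 0.23). SMC3 had 81 and 72 reads (M 0.37), CTCF 67 and 71 (M 0.17), NIPBL 52 and 53 (M 0.35) and STAG1 42 and 64 (M -0.21), and every interval covered 0. Within a library, these reads were 2.95 to 10.8 times the body median in DKO and 1.40 to 3.71 times in HCT116, and the ratio was higher in DKO at each of the 5 genes. The largest ratio was that of RAD21, whose body median was 16 DKO reads and 44 HCT116 reads. TotalRNAPol2 chosen in the same way had 244 and 138 reads at RAD21 (M 0.11), 118 and 52 at CTCF (M 0.84), 123 and 55 at SMC3 (M 0.80), 59 and 39 at NIPBL (M 0.48) and 88 and 87 at STAG1 (M -0.36). Its ratio to the body median was also higher in DKO at all 5 genes, from 2.28 to 5.08 against 1.0 to 2.49. These are ratios of unscaled reads, the end regions were chosen for their density, and the body medians include regions called in a single line. In both whole tables DKO reads relative to HCT116 also grew with the level of a region, with slopes of 0.33 for Pol2Ser2 and 0.32 for TotalRNAPol2, so the ratios are not shown to be particular to the 5 genes.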

How the data were processed

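ChIP-seq reads were aligned with BWA to hg19 per the submitters' processing notes, and MACS2 is named there too, though not for TotalRNAPol2. For the versions and thresholds, no value is given in the sources used here. The 7 tables, 1 per target, list regions called in either line, with a normalized read density per line, a signal deposited by the authors, per the file headers. M, the log2 ratio of the densities, and A, their mean log2 density, were deposited by the authors, as was a p-value per region, used here in 1 alternative only. The 2 input libraries were not used here. Samples were grouped by title, and tables were never compared in level, since each was normalized separately.

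Whole reads were recovered from M and A. Of the values, 100% in each of the 7 targets were whole within 0.05, after 1 added to each count. M equalled the log2 count ratio less a straight line in A, with a slope of 0.33 for Pol2Ser2, 0.32 for TotalRNAPol2 and -0.13 to 0.06 otherwise. Intervals are exact Clopper-Pearson 95% intervals. Higher and lower mean M of at least 1 or at most -1, a 2-fold difference, and no test was made. Regions were matched by at least 1 bp, and distances run from the 5′ edge of the locus to the midpoint of a region. Other scalings used 1 constant per table or the table's median. The recovery was tested on simulated data. The regions named were those of highest density at each start, the highest and lowest M among denser regions of each locus, the strongest CTCF site, and those past 2-fold where a locus and table held few. Other named regions were picked after their values were seen. The members and lists were chosen with earlier results of these data known. No annotation of hg19 was used, so other cohesin genes, colon epithelial markers and genes of like pattern are not analysed here, nor are exons and introns assigned. Python 3.11.15, pandas 2.3.3 and scipy 1.17.1 were used.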

Additional observations from a re-analysis of the deposited data

How the results depend on the processing

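The counts of regions at least 2-fold higher and lower, 28 and 74, were 80 and 142 at 1.5-fold and 1 and 10 at 4-fold. They were 1 and 2 among regions called in both lines, 11 and 10 at or above the median density and 3 and 6 at a deposited p under 1e-05. With constant centring of each table, 121 regions were lower, and without the STAG1 locus, an alternative chosen after seeing the data, 36 were. The excess of lower regions thus lay mainly in regions that were called in a single line and were less dense, and in STAG1. The median M of Pol2Ser2 was -0.38 with a constant and -0.27 recentred, and that of TotalRNAPol2 -0.69 and -0.54. Among regions called in both lines the H3K27Ac median was 0.038 and the TotalRNAPol2 median 0.092. At or above the median density the medians were 0.077 for H3K27Ac, 0.14 for Pol2Ser5 and 0.058 for TotalRNAPol2. At a deposited p under 1e-05 they were -0.89 for RAD21, -0.48 for SMC1, -3.24 for H3K27Ac, 1.89 for Pol2Ser2 and 0.89 for TotalRNAPol2, and no Pol2Ser5 region was left. Without STAG1 the H3K27Ac median was 0.018 in place of -0.43. Of the 34 values at the starts, 6 changed sign with a constant, 4 when recentred and 3 as the median of the regions within 1 kb. Leaving out flanks or asking for the midpoint inside the locus moved no count by 1.5 times. No paired analysis was possible because each line and target had 1 library, and the replicate numbers only name the samples. Regions under about 10 reads have intervals several log2 units wide.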
